A study of Mus musculus with 56 samples.

Results

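The cathepsin genes, the subunit and accessory genes of the vacuolar proton pump (V-ATPase), and Lamp1 and Lamp2 were followed in 26 bulk RNA-seq libraries of mouse liver and liver tumours. They were chosen by symbol: every gene named Cts plus 1 letter, every gene starting with Atp6v0 or Atp6v1, every gene named Atp6ap plus a digit, and Lamp1 and Lamp2. This gave 46 of the 24034 genes of the table: 18 cathepsins, 10 genes of the V0 sector of the pump, 13 of its V1 sector, 3 accessory genes and 2 LAMP genes. The V0 entry Atp6v0c-ps2, a pseudogene, stood at 1.0286 to 1.0295 times Atp6v0c in every library. It cannot be told apart from Atp6v0c in these values and was not counted, which leaves 45 genes.

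Cathepsins are proteases of the lysosome, the acidic compartment in which cells degrade proteins, organelles and swallowed material. Most are cysteine proteases, cathepsins D and E are aspartic proteases, and cathepsins A and G are serine proteases. The V-ATPase makes the compartment acidic: its cytosolic V1 sector splits ATP and its membrane V0 sector carries protons into the lumen, which the luminal proteases need for maturation and activity. Lamp1 and Lamp2 are the abundant glycoproteins of the lysosomal membrane. In liver this system serves the turnover of hepatocyte proteins and organelles and the clearance of particles by macrophages, and several cathepsins also cut antigens for presentation on MHC class II.

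All libraries were labelled as C57BL/6 mice handled by hydrodynamic tail-vein injection, which drives plasmid DNA into liver cells. Tumours had MYC and nicd (the NOTCH1 intracellular domain, its active form) in their titles, with either luc, a luciferase, or lucOS, a luciferase joined to model T-cell antigens. There were 6 healthy livers, 6 luc and 6 lucOS tumours whose labels give no sex, and 4 luc and 4 lucOS tumours labelled as males. Ages, the promoters of the injected genes and any pooling of animals were not stated, and the droplet libraries of the series were not used here. Each library was taken as 1 animal from its title number, so that p-values measure the spread between these libraries.

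Values were the authors' TPM (a transcript's share of its library, corrected for length and scaled to 1000000), so levels of different genes can be set side by side but library depth is unknown. The libraries matched their labels as healthy liver or tumour: Notch1 stood at 3.19 to 8.78 TPM in healthy livers and at 305 to 1152 in tumours. Alb, the hepatocyte marker albumin, took 6.90% to 11.6% of a healthy library and at most 0.874% of a tumour library. The male, luc and lucOS labels were not checked in this way. The median gene was 1.03 higher in tumours on the log2(TPM + 1) scale, and differences are also given relative to that median gene. Male tumours had 8.89% to 15.3% of their TPM in microRNA gene entries against 6.06% to 8.46% in the other tumours. The male label also coincides with 1 series of animal numbers and with TPM totals that miss 1000000 by -3.8 to 256.3, so sex, series and processing cannot be told apart. The library luc male replicate 2 stood apart with 952 summed TPM of neutrophil and mast cell markers and 544 of Kupffer cell markers, against 13.1 to 70.2 and 25.5 to 37.1 in the other luc males.

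Promoter sequences are shown for 5 genes, because lysosomal genes share a sequence element there: genes with the element that were higher, lower or not called in tumours, and 1 without it. The CLEAR element, recognised by TFEB and TFE3, has the E-box CACGTG as its core, and the same E-box is a binding sequence of MYC. In the 300 bases from 250 before to 50 after the start (RefSeq, GRCm38.p6), CACGTG was found in 9 of the 34 genes of the group that have an entry (not the same 34 as those tested below), against 8.09% of the 27025 genes of the promoter annotation. The longer form TCACGTGA, which contains CACGTG, was found in 5 of the 34, against 1.12%. Both read the same on either strand. Capitals below mark TCACGTGA where it is present and CACGTG elsewhere, 5′ to 3′ along the gene. Ctsd, the aspartic protease cathepsin D, lies at chr7:142387778-142388077 on the minus strand, Lamp1 at chr8:13158911-13159210 on the plus strand, Atp6v0d1 at chr8:105566015-105566314 on the minus strand, Atp6v0e at chr17:26676146-26676445 on the plus strand and Atp6v0e2, shown as the isoform without a match, at chr6:48537319-48537618 on the plus strand.
Ctsd: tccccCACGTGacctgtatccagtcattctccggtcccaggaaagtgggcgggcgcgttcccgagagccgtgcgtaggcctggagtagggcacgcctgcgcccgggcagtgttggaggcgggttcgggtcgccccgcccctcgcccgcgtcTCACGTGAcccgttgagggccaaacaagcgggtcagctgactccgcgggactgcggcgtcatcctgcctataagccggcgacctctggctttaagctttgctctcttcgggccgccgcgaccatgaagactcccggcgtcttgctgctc
Lamp1: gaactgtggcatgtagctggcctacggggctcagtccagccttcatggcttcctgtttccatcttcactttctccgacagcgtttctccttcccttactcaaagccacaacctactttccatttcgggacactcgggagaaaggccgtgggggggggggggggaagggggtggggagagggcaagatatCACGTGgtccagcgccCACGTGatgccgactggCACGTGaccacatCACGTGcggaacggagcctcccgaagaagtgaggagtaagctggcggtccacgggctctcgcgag
Atp6v0d1: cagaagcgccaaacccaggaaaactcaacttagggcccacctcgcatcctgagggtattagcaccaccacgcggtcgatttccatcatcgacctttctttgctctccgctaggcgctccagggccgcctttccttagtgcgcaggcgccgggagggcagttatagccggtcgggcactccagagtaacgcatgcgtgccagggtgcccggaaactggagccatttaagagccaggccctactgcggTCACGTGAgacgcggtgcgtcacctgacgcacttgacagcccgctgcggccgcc
Atp6v0e: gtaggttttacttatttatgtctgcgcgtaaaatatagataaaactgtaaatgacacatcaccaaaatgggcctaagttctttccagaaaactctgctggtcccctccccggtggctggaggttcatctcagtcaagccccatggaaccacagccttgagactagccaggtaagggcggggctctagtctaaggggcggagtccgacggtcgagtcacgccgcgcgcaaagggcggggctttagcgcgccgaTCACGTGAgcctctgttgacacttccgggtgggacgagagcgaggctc
Atp6v0e2: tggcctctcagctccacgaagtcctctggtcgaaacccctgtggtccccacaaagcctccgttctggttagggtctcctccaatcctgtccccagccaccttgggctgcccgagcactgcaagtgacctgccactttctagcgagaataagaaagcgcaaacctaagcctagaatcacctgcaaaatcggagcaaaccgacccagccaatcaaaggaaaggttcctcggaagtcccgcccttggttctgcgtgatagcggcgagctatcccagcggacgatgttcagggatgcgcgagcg
Lamp1 held 4 copies of CACGTG and Ctsd 2, of which 1 was the longer form. Of the 9 genes with CACGTG, Ctsa, Ctsd, Atp6v1a and Atp6v0e were called higher in tumours in TPM. Lamp1 and Ctsl were called lower, and Atp6v0b, Atp6v0d1 and Ctsf were not called. Over all genes tested 71.8% were called higher and 16.9% lower. Relative to the median gene, Atp6v1a lay at 0.06 and the others below 0, from -2.66 for Ctsl to -0.03 for Atp6v0e. The differences of Ctsa, Ctsd, Atp6v1a and Atp6v0e turned negative under median ratio scaling, in which each library is divided by its median ratio to the average library. A match is a description of these letters and no evidence of binding.

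Tumours were first compared with healthy liver, taking the 4 tumour groups at equal weight. Several liver-abundant cathepsins and both LAMP genes were lower in tumours, while most pump genes were higher in TPM but by less than the median gene. Of the 34 genes that reached 1 TPM in at least 4 libraries, 19 were called higher and 10 lower with limma at an adjusted p under 0.05 over all 15767 genes tested, where 71.8% of genes were higher and 16.9% lower. Under median ratio scaling the same counts were 4 higher and 28 lower, with 15 of the 19 changing sign, and after quantile normalization they were 9 and 18. Over all genes the calls moved from 11328 higher and 2658 lower to 6724 and 6451 under median ratio scaling. The median log2 difference of the 34 was 0.30, which is 0.73 below the median gene, and 6 of the 34 lay above it: Atp6v0e2, Ctsk, Atp6v1g2, Atp6v1b1, Atp6v1b2 and Atp6v1a. In 7 genes every tumour was above every healthy liver, as in 54.8% of genes, and in 6 every tumour was below, as in 9.83%. Calls for 9 genes held under every alternative: Atp6v0e2 and Atp6v1b1 higher, and Ctsh, Ctsl, Ctso, Ctsz, Atp6v1e1, Lamp1 and Lamp2 lower. Atp6v0e2 and Atp6v1b1 passed the filter only through tumours, where they are high, so their calls followed in part from the filter. Since these are bulk samples, fewer cells of a type and less RNA per cell cannot be told apart in any of these values.

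**Figure D1:**
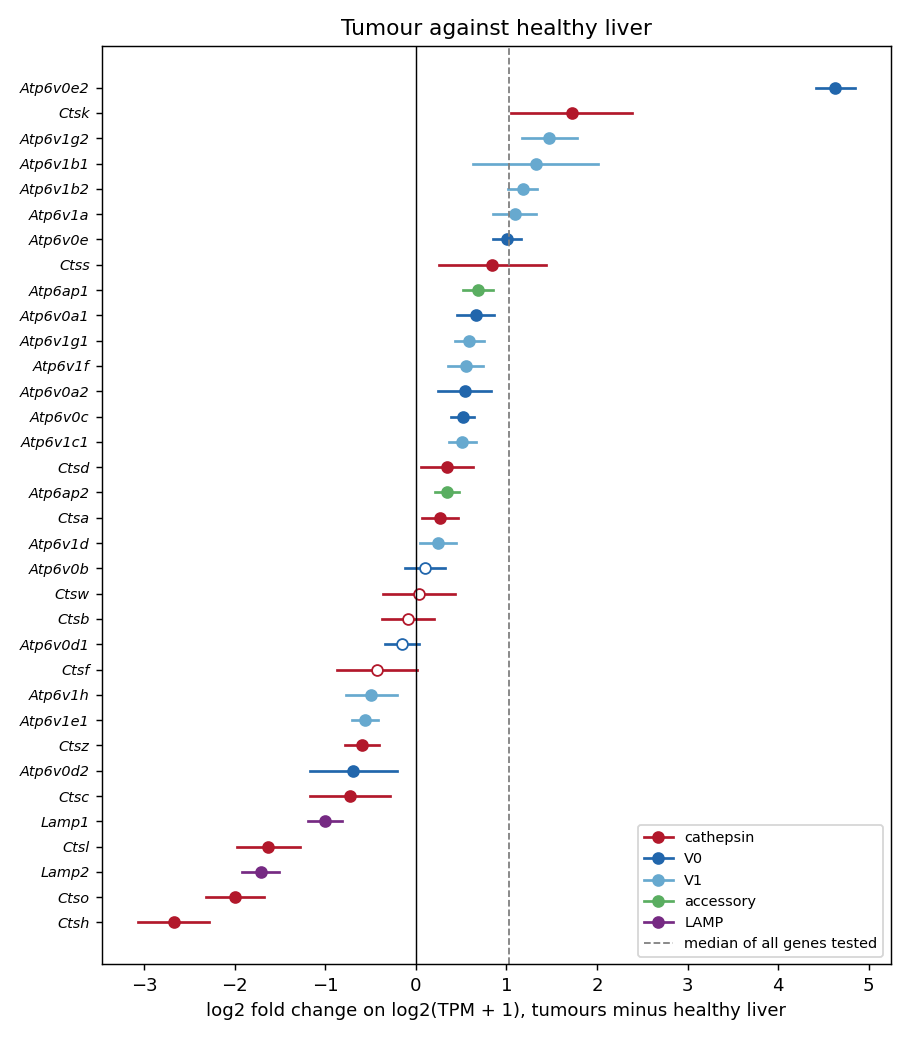
Log2 differences between tumours and healthy liver on log2(TPM + 1) for the 34 tested genes, with 95% intervals, coloured by role. Filled points passed the test, the solid line marks 0 and the dashed line the median of all genes tested, 1.03. Atp6v0e2 lies at 4.63 and Ctsh at -2.67. Under median ratio scaling 15 of the 19 genes called higher change sign.

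Among the cysteine cathepsins, Ctsh, Ctso and Ctsl were furthest below healthy liver in tumours, and abundance in healthy liver did not order the differences. Ctsl, a broad endopeptidase, was the most abundant cathepsin of healthy liver at 433 to 488 TPM (median 453). It stood at 88.0 to 179 in luc (median 134) and 92.6 to 147 in lucOS (median 113). The luc males had 161, 302, 240.0 and 139.6 TPM of Ctsl in replicate order, and the lucOS males 156, 238, 91.7 and 180.2. All 20 tumours were therefore below all 6 livers, and the log2 difference was -1.63 ± 0.17 (SE, adjusted p = 2.08e-09).

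Ctsh, an aminopeptidase known for processing surfactant protein in the lung, was lower still. Healthy livers ranged from 249.995 to 315 TPM (median 271), luc from 22.3 to 40.0 (median 32.0) and lucOS from 14.8 to 42.6 (median 29.4). In luc males Ctsh stood at 51.8, 104, 67.2 and 37.2 TPM and in lucOS males at 65.0, 81.8, 37.2 and 68.9. No tumour reached the healthy range, and the log2 difference of -2.67 ± 0.19 (SE, adjusted p = 1.62e-12) was the lowest of the 34 genes. The mean over the 4 tumour groups was 47.4 TPM against 276 in healthy liver.

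Ctso, a little-studied cysteine cathepsin, followed the same order, with 27.8 to 38.0 TPM in healthy liver (median 35.2), 4.90 to 8.94 in luc (median 6.07) and 4.42 to 6.40 in lucOS (median 5.16). Its values were 7.07, 14.7, 7.97 and 6.81 TPM in luc males and 11.2, 15.6, 7.05 and 19.98 in lucOS males. The groups did not overlap with healthy liver, and Ctso differed by -1.99 ± 0.16 (log2, SE, adjusted p = 9.72e-12). Ctsz, a carboxypeptidase also called cathepsin X, was at 228 to 356 TPM in healthy liver (median 271), 135 to 176 in luc (median 146) and 128 to 203 in lucOS (median 161). Only male tumours of 235 to 263 TPM reached the healthy range for Ctsz, and the log2 difference was -0.59 (adjusted p = 1.91e-06). Ctsc, the dipeptidyl peptidase that activates granule proteases, was at 53.7 to 92.3 TPM in healthy liver against 27.8 to 89.2 over all tumours. For Ctsc 15 tumours were below every healthy liver, and the highest tumour value was that of luc male replicate 2. The call at a log2 difference of -0.72 (adjusted p = 0.00303) was lost against the 3 PM-numbered livers alone.

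The remaining cysteine cathepsins were not called lower in TPM. Ctsb, the abundant broad endopeptidase and exopeptidase, had 218 to 329 TPM in healthy liver, 157 to 283 in luc and 118 to 234 in lucOS. It had 217 to 328 TPM in luc males and 334 to 412 in lucOS males, the latter all above healthy liver. The mean over these groups, which lie on both sides of healthy liver, was not called (log2 difference -0.09, 95% interval -0.37 to 0.20, adjusted p = 0.554). Ctsf, at 18.8 to 33.8 TPM in healthy liver, was not called either (-0.43, interval -0.87 to 0.01, adjusted p = 0.0638). Ctsk, the collagen-degrading cathepsin of osteoclasts, was near 1 TPM in healthy liver, at 0.811 to 1.77, and was higher in tumours by 1.72 ± 0.32 (log2, SE, adjusted p = 2.65e-05). Its tumour values ran from 1.37 TPM in a lucOS library to 62.5 in luc male replicate 3, and the call was lost after quantile normalization. Ctss, the class II antigen-processing cathepsin of macrophages and other presenting cells, had 31.1 to 47.3 TPM in healthy liver and 24.6 to 231 in tumours. The healthy values of Ctss lay inside the tumour range, its log2 difference was 0.85 (adjusted p = 0.00822), and it became -0.43 under median ratio scaling. That call was also lost after quantile normalization, with only luc and lucOS as tumours and against the 3 AL-numbered livers alone. Ctsw, known from NK and cytotoxic T cells, stayed between 0.288 and 3.42 TPM in all libraries and was not called. Relative to the median gene, Ctsb lay at -1.12, Ctsf at -1.46, Ctsw at -0.996, Ctss at -0.19 and Ctsk at 0.69 (log2).

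Of the proteases of other classes, Ctsd was the most abundant cathepsin of tumours. It had 244 to 380 TPM in healthy liver (median 292), 213 to 451 in luc (median 306) and 261 to 472 in lucOS (median 341). The luc males had 346, 374, 374 and 393 TPM of Ctsd, and the lucOS males 599, 483, 519 and 478. The higher call (log2 difference 0.35 ± 0.14, SE, adjusted p = 0.0222) was lost without healthy replicate 4, 5 or 6 and turned to -0.94 under median ratio scaling. Ctsa, the serine carboxypeptidase that protects lysosomal galactosidase and neuraminidase, had 68.6 to 85.2 TPM in healthy liver and 58.9 to 122 in tumours. Its log2 difference of 0.27 (adjusted p = 0.0130) turned to -1.02 under median ratio scaling, and the calls of Ctsa and Ctsd were both lost with only luc and lucOS as tumours.

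**Figure D2:**
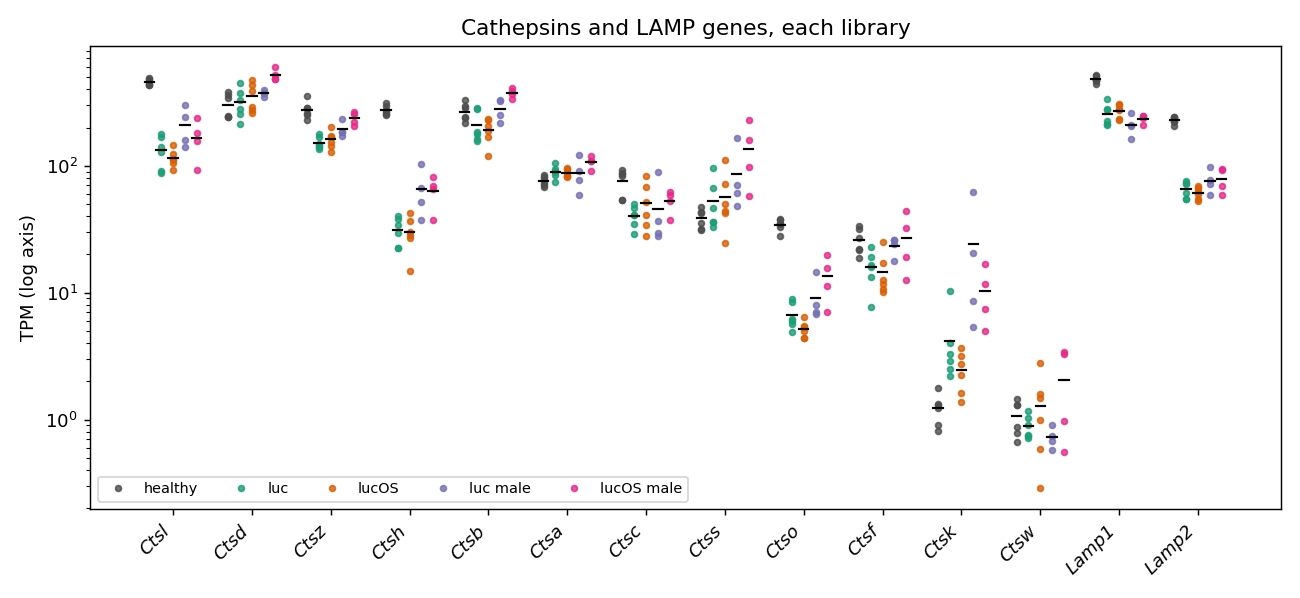
TPM of the 12 tested cathepsins and both LAMP genes in each library, on a log axis. Points are libraries, black bars group means. Healthy points lie above all tumour points for Ctsl, Ctsh, Ctso, Lamp1 and Lamp2, and all 5 stayed lower under every scaling.

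The makeup of cathepsin RNA within each library does not depend on scaling between libraries, and it differed between liver and tumour. The summed cathepsin TPM was 1834 ± 135 (SD, n = 6) in healthy liver, 1052 ± 233 (n = 6) in luc, 1070 ± 202 (n = 6) in lucOS, 1409 ± 251.3 (n = 4) in luc males and 1713 ± 216 (n = 4) in lucOS males. Ctsl led this sum in healthy liver with 22.9% to 28.1%, and Ctsd led in tumours with 21.1% to 37.1% against 12.7% to 19.1% in healthy liver. Ctsh made up 13.2% to 16.5% of the sum in healthy liver and 1.79% to 5.86% in tumours. Ctss made up 1.84% to 2.45% in healthy liver and 2.97% to 12.2% in tumours, and for all 4 of these cathepsins the shares of liver and tumour did not overlap. The share of Ctsz was alike in liver and tumour, at 12.8% to 18.4% and 12.3% to 16.5%, and so was that of Ctsc, at 3.15% to 4.96% and 2.13% to 6.55%.

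Both LAMP genes were lower in tumours. Lamp1 had 438 to 518 TPM in healthy liver (median 472), 208 to 334 in luc (median 249.7) and 228 to 304 in lucOS (median 278). The luc males had 208, 260.3, 164 and 205 TPM of Lamp1 and the lucOS males 244.5, 244.4, 210.4 and 237. Every tumour was below every healthy liver, with a log2 difference of -0.999 ± 0.09 (SE, adjusted p = 2.05e-10). Lamp2, whose isoform LAMP2A also serves chaperone-mediated autophagy, had 206 to 243 TPM in healthy liver and 52.5 to 97.5 in tumours. The log2 difference of Lamp2 was -1.71 ± 0.10 (SE, adjusted p = 2.14e-14).

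In the V0 sector, 5 of 8 tested genes were called higher in tumours in TPM and 1 lower, beside 71.8% and 16.9% of all genes, and 4 of the 5 turned negative under median ratio scaling, the exception being Atp6v0e2. Atp6v0e2, the second isoform of the small V0 subunit e, was the gene of the group with the largest difference. It stood at 0.395 to 0.552 TPM in healthy liver (median 0.478), 27.9 to 49.2 in luc (median 34.7) and 34.1 to 48.3 in lucOS (median 36.7). The luc males had 31.5, 24.6, 21.1 and 37.9 TPM of Atp6v0e2 and the lucOS males 36.4, 40.8, 44.5 and 49.2. All tumours were far above all livers, with a log2 difference of 4.63 ± 0.10 (SE, adjusted p = 3.38e-22), which is 3.60 above the median gene and stayed at 3.53 after quantile normalization. Atp6v0e2 passed the filter only through tumours, since no healthy liver reached 1 TPM.

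Its partner isoform Atp6v0e was at 56.5 to 65.5 TPM in healthy liver and 99.9 to 158 in tumours, again without overlap. That log2 difference of 1.00 ± 0.08 (SE, adjusted p = 4.44e-12) equalled the median gene to within 0.03 and became -0.28 under median ratio scaling. Within the subunit, Atp6v0e2 supplied 0.632% to 0.969% of the e-subunit TPM in healthy livers and 15.4% to 27.5% in tumours, a contrast that no scaling between libraries can alter.

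Atp6v0b and Atp6v0c, the ring subunits, were the most abundant V0 genes of healthy liver. Atp6v0b, the c″ subunit, had 117 to 138 TPM in healthy liver and 88.4 to 216 in tumours. It was not called in TPM (0.10, interval -0.12 to 0.32, adjusted p = 0.367) and lay at -0.93 relative to the median gene. Atp6v0c, the proton-carrying c subunit, had 91.7 to 109 TPM in healthy liver and 96.0 to 204 in tumours, a log2 difference of 0.52 (adjusted p = 2.84e-08) that became -0.77 under median ratio scaling. The large a subunit directs the pump to its membrane. Its isoforms Atp6v0a1, at 19.3 to 24.3 TPM in healthy liver and 23.9 to 53.3 in tumours, and Atp6v0a2, at 10.9 to 25.4 and 15.7 to 36.7, differed by 0.66 and 0.54 (log2). Both turned negative under median ratio and quantile scaling, to -0.59 and -0.23 for Atp6v0a1 and to -0.70 and -0.43 for Atp6v0a2. Against the 3 AL-numbered livers alone Atp6v0a2 was not called (adjusted p = 0.407), and the AL-numbered livers, at 23.2 to 25.4 TPM, did not overlap with the PM-numbered ones, at 10.9 to 15.04. Tcirg1, the a3 isoform that carries no Atp6 symbol, supplied 32.7% to 48.4% of the a-subunit TPM in healthy liver and 33.6% to 66.0% in tumours. Atp6v0d1, the common stalk subunit, was not called in TPM (-0.15, interval -0.34 to 0.03, adjusted p = 0.115) and lay at -1.18 relative to the median gene. Atp6v0d2, its osteoclast and macrophage isoform, was called lower, with a log2 difference of -0.69 (adjusted p = 0.00814), and lay at -1.72 relative to the median gene. Healthy livers had 5.10 to 11.5 TPM of Atp6v0d2 and tumours 1.35 to 13.0, and the call was lost when only male tumours were used and against the 3 PM-numbered livers alone.

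**Figure D3:**
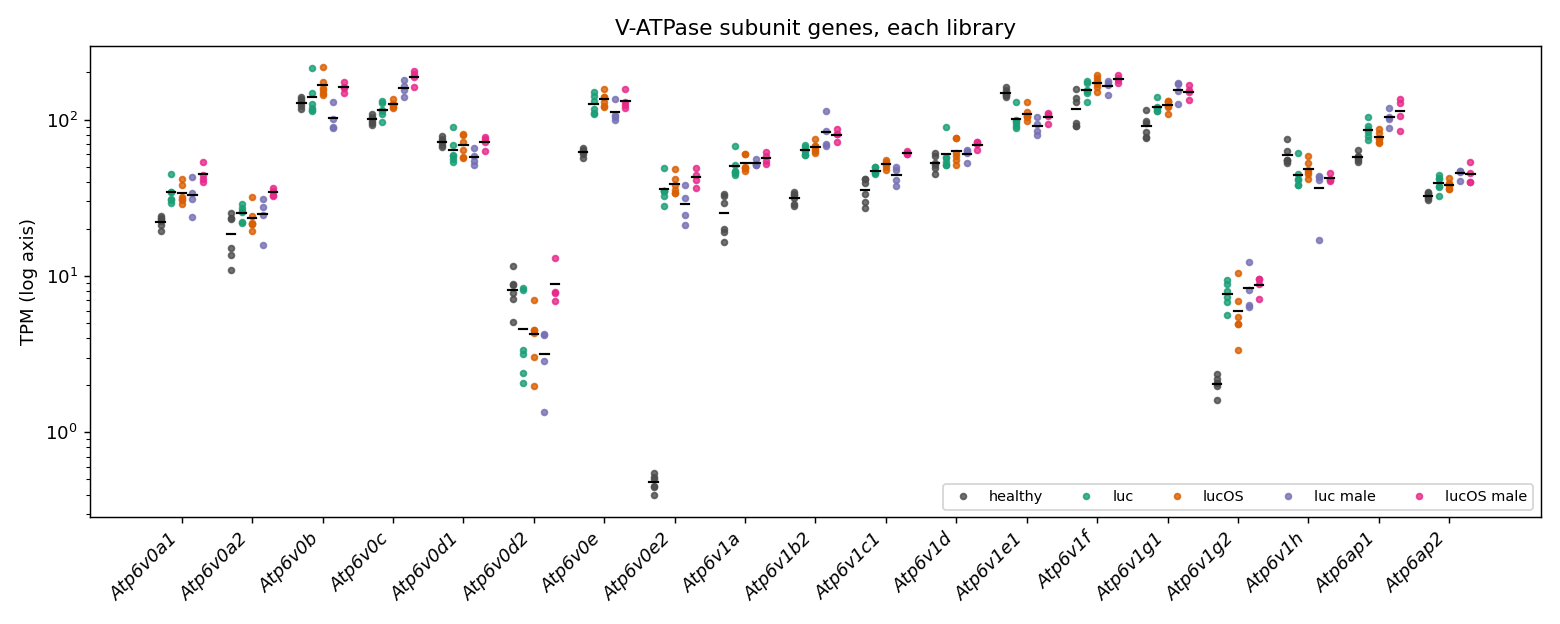
TPM of 19 V-ATPase subunit and accessory genes in each library, on a log axis, with libraries as points and group means as black bars. Atp6v0e2 is near 0.5 TPM in healthy livers and above 20 TPM in all tumours. Atp6v0e, Atp6v1a, Atp6v1b2, Atp6v1g2 and Atp6ap1 also lie higher in all tumours. The direction of 12 of the plotted genes called higher turns under median ratio scaling.

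In the V1 sector, 8 of 10 tested genes were called higher in tumours in TPM and 2 lower, close to the 71.8% and 16.9% of all genes, and under median ratio scaling Atp6v1g2 and Atp6v1b1 alone stayed higher. The ATP-splitting head is built from A and B subunits. Atp6v1a, subunit A, had 16.5 to 33.5 TPM in healthy liver and 44.0 to 68.2 in tumours. Atp6v1b2, the widespread B subunit, had 27.8 to 34.5 TPM in healthy liver and 59.0 to 113 in tumours. Neither gene overlapped between liver and tumour, and their log2 differences of 1.10 ± 0.12 (SE, adjusted p = 2.74e-09) and 1.18 ± 0.08 (SE, adjusted p = 1.99e-13) lay 0.06 and 0.15 above the median gene. Both became slightly negative under median ratio scaling, -0.16 for Atp6v1a and -0.09 for Atp6v1b2.

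Atp6v1b1, the B isoform of kidney and other acid-secreting epithelia, was at 0 in 4 healthy livers and at most 0.0210 TPM in the other two. Tumours had 0.187 to 12.3 TPM of it, highest in lucOS replicate 4, and the call at 1.32 ± 0.33 (log2, SE, adjusted p = 0.000744) rests on tumours alone, since no liver reached 1 TPM. Atp6v1g2, the G isoform known from neurons, was at 1.60 to 2.35 TPM in healthy liver and 3.38 to 12.3 in tumours, a log2 difference of 1.48 (adjusted p = 8.76e-10) that was lost after quantile normalization. Atp6v1g2 overlaps Nfkbil1 in the annotation. Atp6v1b2, Ctsa, Ctsb, Ctsw and Ctsz likewise overlap other protein-coding genes. Strand use in the counting is not given in the sources used here, and whether reads are shared was not tested. The share of Atp6v1g2 in G-subunit TPM was 2.00% to 2.77% in healthy liver and 2.72% to 7.33% in tumours, so the shares met at the edge. The main G isoform Atp6v1g1 had 76.3 to 115 TPM in healthy liver and 108 to 171 in tumours.

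Atp6v1e1, the peripheral stalk subunit E, was the most abundant V1 gene of healthy liver and went the other way. It had 139 to 162 TPM in healthy liver (median 146), 87.8 to 130.3 in luc (median 96.8) and 98.3 to 130.3 in lucOS (median 105). The luc males had 94.2, 104, 84.7 and 80.0 TPM of Atp6v1e1 and the lucOS males 108, 110.5, 93.0 and 105. Every tumour was below every liver, with a log2 difference of -0.56 ± 0.07 (SE, adjusted p = 7.77e-08). Atp6v1h, the regulatory subunit H, was also lower (-0.49, adjusted p = 0.00171), with 52.9 to 75.4 TPM in healthy liver and 17.0 to 60.6 in tumours, and lost its call against the 3 PM-numbered livers alone. The other V1 genes, Atp6v1c1, Atp6v1d and Atp6v1f, were called higher by 0.52, 0.24 and 0.55 (log2), and each turned negative under median ratio scaling. The call of Atp6v1d was lost without healthy replicate 4 or 5.

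The summed V0 TPM was 412 ± 13.1 (SD, n = 6) in healthy liver and 544 ± 88.4 (n = 6), 595 ± 55.4 (n = 6), 520.0 ± 61.3 (n = 4) and 683 ± 26.1 (n = 4) in luc, lucOS, luc males and lucOS males. Summed V1 TPM was 563 ± 28.7 (SD, n = 6) in healthy liver and 650.2 ± 62.9 (n = 6), 698 ± 48.3 (n = 6), 696 ± 57.1 (n = 4) and 756 ± 25.3 (n = 4) in the same order. Taken over the tumour groups these sums were 1.42 and 1.24 times the healthy level, whereas the cathepsin sum was 0.715 times and the LAMP sum 0.441 times. Median ratio scaling moved the 4 ratios to 0.576, 0.506, 0.289 and 0.179. It multiplies all genes of a library alike, so it leaves their order as it was.

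The accessory genes Atp6ap1, an assembly factor of the pump, and Atp6ap2, known as the prorenin receptor, were called higher. Atp6ap1 had 53.3 to 63.6 TPM in healthy liver and 71.2 to 136 in tumours without overlap, a log2 difference of 0.69 (adjusted p = 1.97e-08), and Atp6ap2 had 30.6 to 34.4 and 32.5 to 53.2, a difference of 0.34 (adjusted p = 1.96e-05). Under median ratio scaling they became -0.59 and -0.92.

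**Figure D4:**
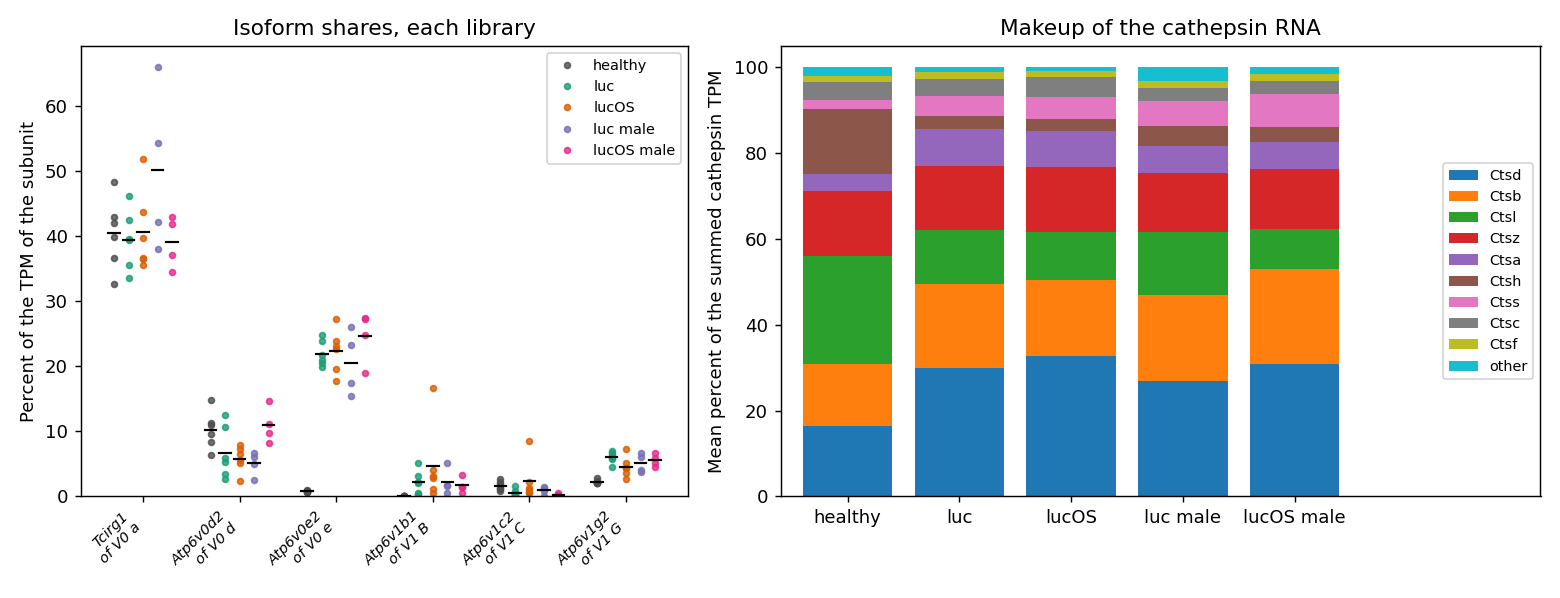
Left, the share of an isoform in the TPM of its subunit in each library, in percent, with group means as black bars. Right, the mean makeup of the summed cathepsin TPM per group, in percent. Atp6v0e2 is below 1% in healthy livers and above 15% in all tumours, and Ctsd takes a mean of 30.4% of cathepsin TPM in tumours.

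The 11 genes below the filter were Atp6ap1l, Atp6v0a4, Atp6v1c2, Atp6v1e2, Atp6v1g3, Ctse, Ctsg, Ctsj, Ctsm, Ctsq and Ctsr. Of these, Atp6v1g3, Ctsm, Ctsq and Ctsr were listed at 0 in all 26 libraries. Atp6v0a4 and Atp6v1c2, isoforms of acid-secreting epithelia, peaked at 2.92 and 4.62 TPM, both in lucOS tumours. Ctsg, the granule protease of neutrophils, was at most 1.52 TPM in 25 libraries and 35.8 TPM in luc male replicate 2. That library also had 51.1 TPM of Elane and 62.1 of Mpo, which encode neutrophil granule enzymes and were at most 2.29 and 3.24 TPM in the other libraries.

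Other lysosomal genes gave a wider setting for the tumour comparison, and their counts stand beside 71.8% higher and 16.9% lower over all genes in TPM, shares that depend on the scaling as given above. Among luminal hydrolases outside the group, 16 of 31 were called higher and 8 lower, with Lgmn, the asparaginyl endopeptidase that matures cathepsins, 2.11 higher (log2) and Lipa, the acid lipase, at -1.86. Of 22 further lysosomal membrane genes and cofactors 12 were higher and 8 lower, led by Cd63, a tetraspanin of late endosomes, at 6.03 ± 0.503 TPM (SD, n = 6) in healthy liver and 727 ± 77.9 (n = 6) in luc. All 12 calls among the 14 sorting genes were higher, among them Igf2r, a receptor for mannose 6-phosphate tags, at 3.58, and Sort1 at 3.17. Pump partners and assembly genes outside the group had 7 of 13 higher and 0 lower, and Ragulator and Rag GTPase genes, which tether mTORC1 to the lysosome, 9 of 12 higher and 3 lower. Of the 4 MiT/TFE factors Tfe3 alone was called, 0.91 higher, and Tfeb was not called at -0.25 (adjusted p = 0.125). Among cathepsin inhibitors 4 of 10 were higher and 4 lower, with the liver-secreted Kng1 and Ahsg at -4.78 and -4.66.

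Cell type markers were counted in the same comparison, against the same 71.8% higher and 16.9% lower over all genes. All 8 hepatocyte markers were lower, with summed levels of 109473 to 159295 TPM in healthy livers and 260.3 to 14452 in tumours. Of 9 Kupffer cell markers 8 were lower, with sums of 332 to 422 TPM in healthy livers and 14.5 to 544 in tumours. Macrophage markers had 10 of 16 higher and 0 lower, with sums of 335 to 455 TPM in healthy livers and 302 to 1650 in tumours, and fibroblast markers 6 of 8 higher and 1 lower, with sums of 117 to 135 and 566 to 3248. All 6 biliary markers were higher, with sums of 27.9 to 35.0 TPM in healthy livers and 357 to 2360 in tumours. With 0 lower in each list, class II markers had 5 of 7 higher and B cell markers 3 of 5 tested. Neutrophil and mast markers had 3 of 3 tested higher and NK and T cell 1 of 4. B cell sums were 2.07 to 11.3 TPM in healthy livers, 1.03 to 2.90 in luc and lucOS and 13.0 to 35.6 in males. NK and T cell sums were 5.03 to 9.66 TPM in healthy livers and 0.750 to 3.83 in luc. They were 0.722 to 12.4 in lucOS and 4.84 to 32.4 in males. Neutrophil and mast sums were 1.26 to 6.10 TPM in healthy livers, 0.313 to 22.0 in luc and lucOS and 7.11 to 952 in males. Class II sums were 88.6 to 188 TPM in healthy livers and 48.4 to 2139 in tumours. Endothelial markers had 2 of 8 higher and 1 lower. Neither Ctsh, Ctsl, Ctso nor the LAMP genes reached their healthy level in any tumour. The part of these cell types in the cathepsin and pump differences was not tested.

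The antigen comparison asked whether lucOS tumours differ from luc tumours. Without a male label no cathepsin, pump or LAMP gene differed beyond the spread between libraries: limma called 0 of 34, and 0 of the 34 had an unadjusted p under 0.05, where 0% of 15453 genes were called and 385 had such a p. The log2 differences of the 34 ran from -0.47 to 0.51 with a median of 0.07. The precision differed by gene, with a 95% interval of -0.20 to 0.51 for Ctsd, -0.74 to 0.91 for Ctss and -0.01 to 0.26 for Atp6v1c1. The animal numbers form 2 series, with 3 luc and 2 lucOS libraries in 1 and 3 luc and 4 lucOS in the other, and the sign of the difference was the same within both for 24 of the 34.

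In males 1 gene passed the test, Atp6v1c1, the C subunit that bridges V1 and V0. Its values were 49.7, 41.2, 37.4 and 47.5 TPM in luc males and 61.3, 60.5, 63.1 and 60.2 in lucOS males. All lucOS males were above all luc males, by 0.48 ± 0.08 on the log2 scale (SE, adjusted p = 0.0181). Over all genes 0.259% were higher and 0.0906% lower, or 40 and 14 genes, against 21 and 29 under median ratio scaling. Without luc male replicate 2, which stood apart, the adjusted p rose above the threshold, as it did without luc male replicate 3 or lucOS male replicate 1 or 2, where it reached at most 0.0748. Without luc replicate 3 the count was 2 and without luc male replicate 4 it was 4. It was also lost under median ratio scaling (0.37) and when only the groups compared entered the fit (adjusted p = 0.352).

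The V0 genes lay on the same side in males, though none passed the test. All 8 tested V0 genes had a positive difference, with a median of 0.47 against 0.08 for all genes. So had 10 of 12 cathepsins, 7 of 10 V1 genes, 1 of 2 accessory genes and 2 of 2 LAMP genes. How many of all genes had a positive difference was not counted. An unadjusted limma p under 0.05 was found for 7 of the 8, for 10 of the 34 genes and for 2675 of 15453 genes. Set against luc tumours, luc males had a positive difference in 1 of the 8 V0 genes (median -0.16). Set against lucOS tumours, lucOS males had one in 6 of the 8 (median 0.27). Atp6v0b had 88.4, 129, 88.9 and 100.1 TPM in luc males and 162, 148, 160 and 174 in lucOS males. It did not overlap, and its adjusted p was 0.0930. Atp6v0d2 had 4.20, 2.84, 1.35 and 4.24 TPM in luc males and 7.86, 13.0, 7.81 and 6.93 in lucOS males, again without overlap (adjusted p = 0.121). In total 6 genes lay entirely higher in lucOS males, namely Atp6v0a2, Atp6v0b, Atp6v0d2, Atp6v1c1, Ctsb and Ctsd, as did 5.01% of all genes. Ctsd stood at 346 to 393 TPM in luc males and 478 to 599 in lucOS males. Macrophage marker sums were 421 to 1385 TPM in luc males and 792 to 1650 in lucOS males, and their part was not tested.

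The interaction, which tests whether the antigen difference itself differs between male and other tumours, called 0% of 15453 genes with limma and 0 of the 34, although 5 of the 34 and 1842 of all genes had an unadjusted p under 0.05. For Atp6v1c1 the interaction was 0.35 (95% interval 0.13 to 0.57, adjusted p = 0.332) and for Atp6v0d2 1.30 (0.28 to 2.32, adjusted p = 0.358). The male and unlabelled antigen comparisons are therefore not shown to differ.

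Male tumours were last compared with tumours of the same construct without a sex label, and all genes called in the group were higher in the male-labelled tumours. In lucOS 11 of the 34 genes were called higher and 0 lower, among 15.2% of all genes higher and 9.29% lower. Those shares are 2342 and 1436 genes, against 1441 and 2116 under median ratio scaling. They were 6 cathepsins (Ctsb, Ctsd, Ctsh, Ctsk, Ctso and Ctsz), 2 V0 genes (Atp6v0a2 and Atp6v0c), 2 V1 genes (Atp6v1c1 and Atp6v1g1) and Atp6ap1. Ctsb had 118 to 234 TPM in lucOS (median 196) and 391, 367, 334 and 412 in lucOS males, a log2 difference of 1.01 ± 0.20 (SE, adjusted p = 0.00199). All lucOS males were above all lucOS tumours for 9 of the 34 genes, against 8.9% of all genes. The differences of Ctsk (1.62), Ctso (1.15) and Ctsh (1.06) were the other ones above 1 among the called genes. Calls for Ctsb, Ctso, Ctsz, Atp6v0a2, Atp6v0c and Atp6ap1 held when any library was left out and under every other alternative run, while without lucOS male replicate 2 the count was 6 and without lucOS male replicate 4 it was 7.

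In luc the male label went with 5 higher and 0 lower genes, among 8.94% of all genes higher and 7.97% lower. Those shares are 1382 and 1231 genes, against 1097 and 1573 after quantile normalization. These were Atp6v0c, Atp6v1b2, Atp6v1g1, Ctsh and Ctsk. Atp6v0c had 96.0 to 131 TPM in luc (median 114) and 165, 179, 139.8 and 155 in luc males, which was the 1 gene without overlap, against 6.68% of all genes. Its difference of 0.47 ± 0.09 (log2, SE, adjusted p = 0.00214) held under every alternative, as it did in lucOS at 0.57 (adjusted p = 0.000303). Ctsk had 2.21 to 10.3 TPM in luc (median 3.08) and 20.7, 8.57, 62.5 and 5.40 in luc males, with overlap, and its difference of 1.87 (adjusted p = 0.0158) lost its call without luc male replicate 3. Without that library the count was 1, without luc replicate 1 it was 3, and without luc male replicate 2 the counts were 3 higher and 1 lower. No interaction was called, so the 11 and the 5 are not shown to differ.

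**Figure D5:**
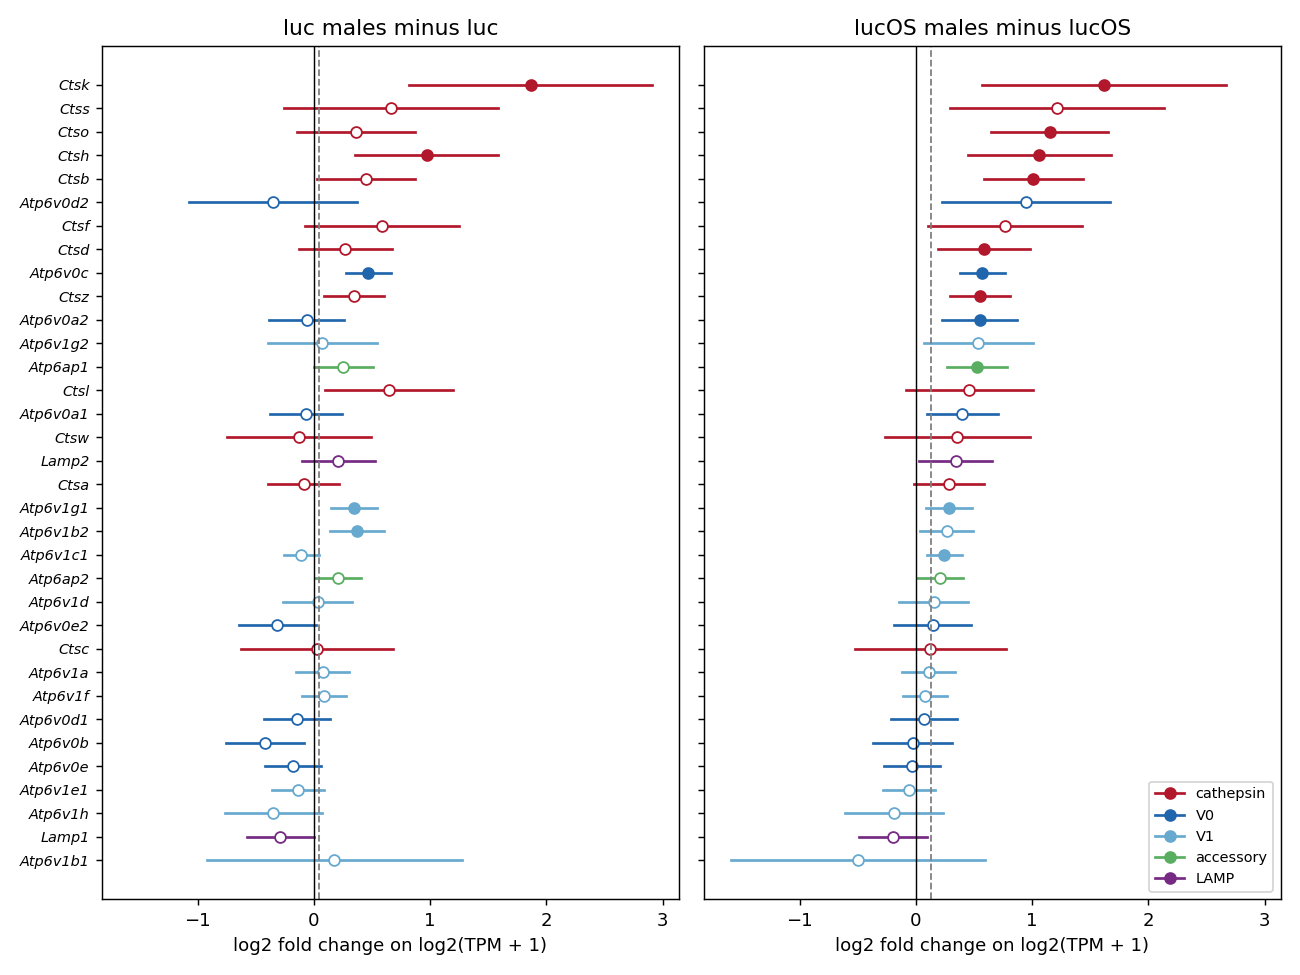
Log2 differences on log2(TPM + 1) between male-labelled tumours and tumours without a sex label, for luc on the left and lucOS on the right, with 95% intervals for the 34 genes. Filled points passed the test, the solid line marks 0 and the dashed line the median of all genes, 0.05 and 0.13. Ctsk, Ctsh, Atp6v0c and Atp6v1g1 are filled on both sides, and no called gene lies below 0.

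Lysosomal genes outside the group and cell type markers were counted in the male comparisons too, beside 15.2% of all genes higher in lucOS and 8.94% in luc. In lucOS males 17 of 31 luminal hydrolases and 8 of 22 membrane genes and cofactors were called higher and 0 lower, with Psap, the precursor of the saposin cofactors, 0.93 higher and Laptm5, a lysosomal protein of blood cells, 1.41 higher. In luc males 7 of 31 hydrolases were higher and 0 lower, while of the Ragulator and Rag genes 1 of 12 was higher and 3 lower, and Lamtor4 of the Ragulator was lower in both, at -0.57 in luc and -0.33 in lucOS. In lucOS males 6 of 16 macrophage, 6 of 7 class II, 2 of 9 Kupffer and 5 of 5 B cell markers were called higher. So were 5 of 8 endothelial, 4 of 8 fibroblast, 2 of 3 tested NK and T cell and 1 of 8 hepatocyte markers. Hepatocyte marker sums were 398 to 4591 TPM in lucOS and 957 to 14452 in lucOS males. Biliary markers had 0 of 6 called. Macrophage marker sums were 302 to 982 TPM in lucOS and 792 to 1650 in lucOS males, and class II sums 51.2 to 648 and 382 to 2139. In luc males 2 of 16 macrophage markers were higher, with sums of 374 to 828 TPM in luc and 421 to 1385 in luc males. Endothelial markers had 2 of 8 higher, fibroblast 1 of 8, and hepatocyte and Kupffer markers 0. The neutrophil and mast and the NK and T cell lists each had 1 of 3 tested markers higher. Of the class II markers 2 of 7 were higher in luc males, with sums of 48.4 to 295.5 TPM in luc and 335 to 585 in luc males, and of the B cell markers 5 of 5, with sums of 1.08 to 2.17 and 13.0 to 24.2. These 2 lists did not overlap between luc and luc males in their sums. The sums of luminal hydrolases, membrane genes and cofactors, MiT/TFE factors, and NK and T cell markers were also entirely higher in luc males. Those of pump partners and assembly genes were entirely lower, at 331 to 385 TPM against 415 to 468 in luc. Among single genes 6.68% lay entirely higher in luc males and 6.70% entirely lower. Tfe3 was higher in both, by 0.45 in luc and 0.40 in lucOS, and Tfeb by 0.88 in luc alone by call. The part of these cell type markers in the male differences was not tested.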

How the data were processed

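The authors deposited 1 table of TPM for the 26 bulk libraries. Per the submitters' processing notes, the tools were DESeq2, featureCounts and TopHat2, on mm10. Their versions, roles, annotation and strand use were not given in the sources used here. TPM keeps no read depth, so no counting interval is given. Of 24063 entries, 27 date-like names and 2 duplicates were dropped.

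TPM was tested as log2(TPM + 1), keeping genes that reached 1 TPM in 4 or more libraries, with limma 3.58.1 (trend, robust) in R 4.3.3 and Benjamini-Hochberg adjustment over all genes, calling at 0.05. Fold changes on this scale understate the change of low genes. The tumour against healthy fit used all 26 libraries, and the other comparisons the 20 tumours. The procedure was also run on simulated data in which most genes did not differ between groups. That run cannot bear on the scaling between tumour and healthy libraries. The genes and lists were chosen with earlier results of these data known. Named were all genes of the rule, and from other lists at most 2 called genes of at least 5 TPM each, plus a few fixed ones; Elane and Mpo were added after their values were seen. Alternatives covered scaling, pseudocount 0.1, filter, weights, microRNA entries, number series, groups in the fit and leaving out each library.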

Additional observations from a re-analysis of the deposited data

Results flagged for a closer look

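In groups of 4 to 6 libraries, genes were searched for a library whose gap to its nearest neighbour was large for the group range. The rule flags about 1 in 20 sets of independent, normally distributed values. Genes of 1 library are not independent, so that rate is no strict yardstick here. The rule flagged 15 of the 170 examined gene and group sets. Of these, 7 were the highest value in luc replicate 3, all in pump genes: Atp6v0a1 at 44.9 TPM, Atp6v0b at 213.1, Atp6v0e2 at 49.2, Atp6v1a at 68.2, Atp6v1d at 89.3, Atp6v1e1 at 130.3 and Atp6v1h at 60.6. The next luc library had 34.6, 147, 35.1, 51.4, 57.3, 99.6 and 44.8 TPM of these genes. The same library stood apart in this way for 6.22% of the 15767 genes tested. It was the highest luc library for 6 of 8 tested V0 and 5 of 10 V1 genes, and for 0 of 12 cathepsins, against 31.3% of all genes. The part of the library as a whole in this was not tested.

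In luc replicate 6, Atp6v1g1 was highest at 139.9 TPM and Ctsk at 10.3 TPM. In luc male replicate 2, which had high neutrophil and Kupffer cell markers, Ctsc was highest at 89.2 TPM against 36.6 in the next library, and Ctso at 14.7 against 7.97. In luc male replicate 4, Atp6ap2 was lowest at 40.5 TPM and Atp6v1h at 17.0 TPM against 41.1. Atp6v1b1 was highest in lucOS replicate 4 at 12.3 TPM, and Atp6v0d2 in lucOS male replicate 2 at 13.0 TPM.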

How the results depend on the processing

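No paired analysis was possible because the titles carry animal numbers and no replicate number shared between groups. The tumour against healthy calls depended on the scaling: 4 genes were higher and 28 lower under median ratio scaling, and 9 and 18 after quantile normalization, with the median of all genes moving from 1.03 to 0.05 and 0.10. Under median ratio scaling these log2 differences reversed: Atp6ap1 -0.59, Atp6ap2 -0.92, Atp6v0a1 -0.59, Atp6v0a2 -0.70, Atp6v0c -0.77, Atp6v0e -0.28, Atp6v1a -0.16, Atp6v1b2 -0.088, Atp6v1c1 -0.75, Atp6v1d -1.03, Atp6v1f -0.73, Atp6v1g1 -0.69, Ctsa -1.02, Ctsd -0.94 and Ctss -0.43. Quantile normalization reversed Atp6ap2 -0.43, Atp6v0a1 -0.23, Atp6v0a2 -0.43, Atp6v1c1 -0.22, Atp6v1d -0.35 and Ctsa -0.16. Leaving out 1 library kept 27 to 30 calls there. For lucOS against luc in males the 1 call became 0 under median ratio scaling, 0 with only the compared groups in the fit, 2 with array weights and 0 to 4 when 1 library was left out. For the male label in luc the 5 calls became 9 with array weights (8 higher and 1 lower), 2 with only the compared groups in the fit and 1 to 6 when 1 library was left out, and 1 gene, Atp6v0b, was lower under median ratio scaling, quantile normalization and array weights, and 0 to 1 genes when 1 library was left out. For the male label in lucOS the 11 calls became 6 to 16 when 1 library was left out. The cause of these changes was not tested. Unknown depth limits statements on genes near 1 TPM.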

Other observations

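Within the luc group, replicates 4 and 6 were the 2 highest libraries for 13 of the 34 tested genes, as for 10.3% of all genes. Ctsb stood at 280.4 and 283 TPM in these libraries and at 157 to 185 in the other luc tumours, and Ctss at 66.9 and 96.7 against 32.9 to 46.1. The macrophage gene Cd68 was at 46.9 and 44.8 TPM in the same libraries and at 20.1 to 29.1 in the others. Within healthy liver, the 3 AL-numbered and 3 PM-numbered livers did not overlap for 16 of the 34 genes, as for 44.5% of all genes tested. Ctsd was at 339 to 379.5 TPM in the AL-numbered livers and 244 to 245 in the PM-numbered ones, and Atp6v1f at 90.7 to 95.5 and 129 to 156. The meaning of these number series is not given in the labels.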
